A study of Oryza sativa with 8 samples.

Results

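Leaf transcripts of the dgp1 mutant of rice were set against those of the glk1glk2 double mutant, both grown under normal phosphate supply. The members are the genes with at least 50 FPKM (fragments per kilobase of gene, scaled to sequencing depth) in 1 or both of these libraries, 3768 of the 40718 genes in the table. Each genotype is 1 RNA-seq library: dgp1_CK (dgp1 mutant, control medium), glk1glk2_CK (glk1glk2 double mutant, control medium) and, for reference, DJ_CK, the wild type DJ that serves as the wild type of both mutants. Leaves came from seedlings raised for 2 weeks on diluted Murashige and Skoog solid medium. The same genotypes were also sampled after 6 days on 10 µM KH2PO4 (dgp1_LP, glk1glk2_LP). The sources used here give neither the alleles, nor the plants per library, nor the hour of harvest, and each mutant stands for whatever line was grown. With 1 library a group there is no replicate check, so no p-value is given and every difference is one between libraries.

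Golden2-like (GLK) proteins are transcription factors of green tissue. They bind the promoters of nuclear genes for chlorophyll synthesis, for the chlorophyll-binding antenna proteins and for photosystem subunits, and switch them on as chloroplasts form. In grasses and in Arabidopsis, plants without both GLK genes are pale green. DGP1 (DEEP GREEN PANICLE1) is known in rice as a protein that holds back GLK activity. The comparison therefore sets a plant without the repressor against one without the activators.

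Both libraries held similar numbers of reads, 15906800 in dgp1_CK and 14307611 in glk1glk2_CK, but not of distinct cDNA fragments. Among genes with few reads, the number seen most often was 23 in dgp1_CK and 190 in glk1glk2_CK, and it was taken as the copies made of 1 fragment. On that reading dgp1_CK rested on about 691600 fragments and glk1glk2_CK on about 75303. A level of 3 fragments in a gene of 1 kb corresponded to 5.54 FPKM in dgp1_CK, 31.8 FPKM in glk1glk2_CK and 11.1 FPKM in DJ_CK. Ratio intervals below are 95% exact conditional binomial intervals over these fragments. They cover counting error only, not the spread between plants, and are approximate because the fragments are estimated.

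Genes at least 2-fold higher in dgp1_CK outnumbered those at least 2-fold lower. On log2 of the ratio of FPKM + 1, dgp1_CK was at least 2-fold higher for 1310 members (34.8% of all) and at least 2-fold lower for 812 (21.5%), and 1646 lay within 2-fold; past 2-fold in either direction were 56.3%. For 1006 of the members that were higher (26.7% of all members) and 601 of those that were lower (16.0%), the interval also lay beyond 1. The median log2 ratio of all members was 0.29. This split depends on the scaling: when values are scaled to the reads of their own library, which shifts the log2 ratios by -0.68, 862 members were higher and 1371 lower, so that 38.6% of those past 2-fold were higher in place of 61.7%. Median-of-ratios scaling left it at 1327 higher and 796 lower. List medians below are given beside the 0.29 of all members.

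The share of members that were higher grew with level. Of 139 members with 1000 FPKM or more in 1 of the libraries, 108 were higher in dgp1_CK and 13 were lower. Of 1909 members between 50 and 100 FPKM, 546 were higher and 450 lower. Between 100 and 300 FPKM, 452 of 1322 were higher and 283 lower, and between 300 and 1000 FPKM, 204 of 398 were higher and 66 lower. In the lowest band the median member had 33.7 estimated fragments in dgp1_CK and 5.37 in glk1glk2_CK, and the interval cleared 1 for 55.9% of the higher genes and 59.6% of the lower ones, against 100% of both at 300 FPKM or more. The lower limit of 50 FPKM passed between genes of near-equal level: Os03g0660700, with 34.50 FPKM in dgp1_CK and 50.03 FPKM in glk1glk2_CK, was just inside it, and Os08g0436000, with 44.58 FPKM in dgp1_CK and 49.99 FPKM in glk1glk2_CK, just outside. A total of 38 members had a value of 0 in dgp1_CK and 120 had a value of 0 in glk1glk2_CK.

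**Figure D1:**
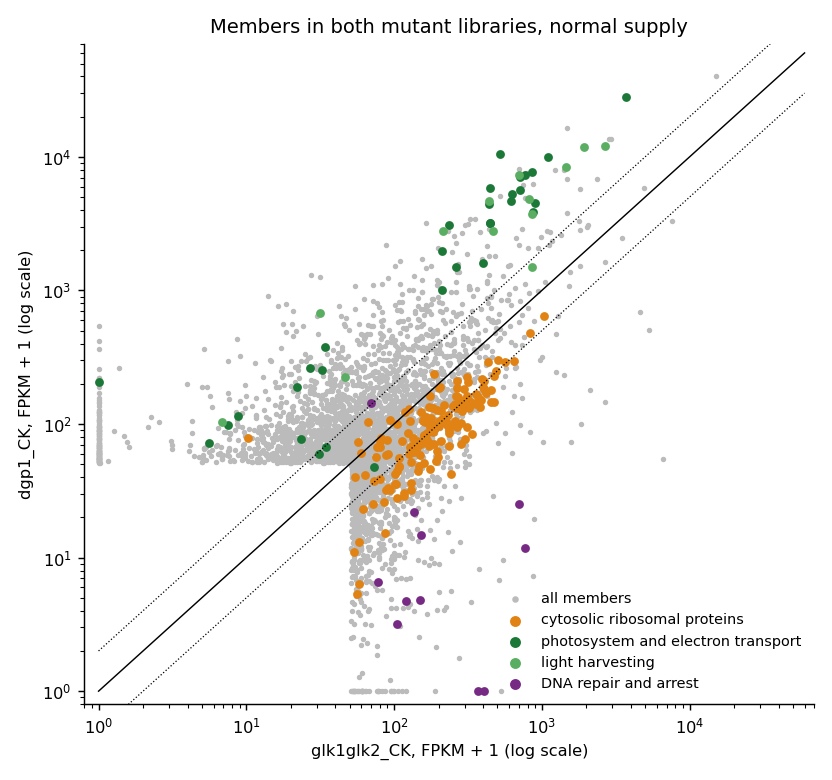
Each grey point is 1 of the 3768 members, with FPKM + 1 in dgp1_CK on the vertical axis and in glk1glk2_CK on the horizontal axis, both on log scales. The solid line marks equal values and the dotted lines 2-fold differences; photosystem and antenna genes (greens) lie mostly above the upper dotted line, cytosolic ribosomal proteins (orange) lie mostly below the solid line, and most genes for DNA repair and cell cycle arrest (purple) lie at the bottom right.

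The transcripts of GLK1 and GLK2 themselves were lower, but not absent, in the double mutant. OsGLK1 (Os06g0348800, chromosome 6, 14078261 to 14082203 on the deposited coordinates, whose genome build the sources do not state) had 273 FPKM in dgp1_CK, 40.9 FPKM in glk1glk2_CK and 179 FPKM in DJ_CK. It was 6.67-fold higher in dgp1_CK than in glk1glk2_CK (interval 3.23 to 16.4). GLK2 (Os01g0239000, chromosome 1, 7686901 to 7693984) had 83.4 FPKM in dgp1_CK, 32.2 FPKM in glk1glk2_CK and 96.2 FPKM in DJ_CK, and was 2.59-fold higher in dgp1_CK than in glk1glk2_CK (interval 1.28 to 6.05). On scaling to own reads the log2 ratio of OsGLK1 was 2.04 in place of 2.71. That of GLK2 was 0.68 in place of 1.34, so that GLK2 did not reach 2-fold. The double mutant's values rest on 7.25 estimated fragments for OsGLK1 and 8.21 for GLK2, and where in the gene they lie cannot be seen from a value per gene. No gene in the files carries the name DGP1, and its transcript was not analysed here.

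Antenna genes were higher in dgp1_CK almost throughout. Antenna proteins hold most of a leaf's chlorophyll and pass light energy to the photosystem cores. Of 13 members, 12 were at least 2-fold higher, all 12 beyond counting error, and none was lower, and the median log2 ratio was 2.58. Among the most abundant, CAB1R, a main antenna protein of photosystem II, had 11994 FPKM in dgp1_CK, 2662 FPKM in glk1glk2_CK and 4351 FPKM in DJ_CK. ASCAB9-A, the minor antenna protein CP26, had 7321 FPKM in dgp1_CK, 696 FPKM in glk1glk2_CK and 3262 FPKM in DJ_CK. CP29, another minor antenna protein, had 4712 FPKM in dgp1_CK, 436 FPKM in glk1glk2_CK and 2830 FPKM in DJ_CK. In all of these the wild type lay between the mutants.

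The ratio varied among the antenna genes from 4.41 to 0.80 on the log2 scale. CP24, also a minor antenna protein, stood highest, with 672 FPKM in dgp1_CK, 30.7 FPKM in glk1glk2_CK and 629 FPKM in DJ_CK (interval of the fold 7.78 to 96.5). CAB2R, close to it in the order, had 2782 FPKM in dgp1_CK, 215 FPKM in glk1glk2_CK and 1414 FPKM in DJ_CK (interval 8.66 to 20.3). At the other end, Os07g0562700, annotated as a type III chlorophyll a/b-binding protein, had 1499 FPKM in dgp1_CK, 861 FPKM in glk1glk2_CK and 919 FPKM in DJ_CK and did not reach 2-fold. Summed over the list, levels came to 60936 FPKM in dgp1_CK, 10474 FPKM in glk1glk2_CK and 30872 FPKM in DJ_CK, and 12 of the 13 genes had the wild type below dgp1 and above the double mutant. Antenna genes are close copies of one another, so reads may have been split between them.

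**Figure D2:**
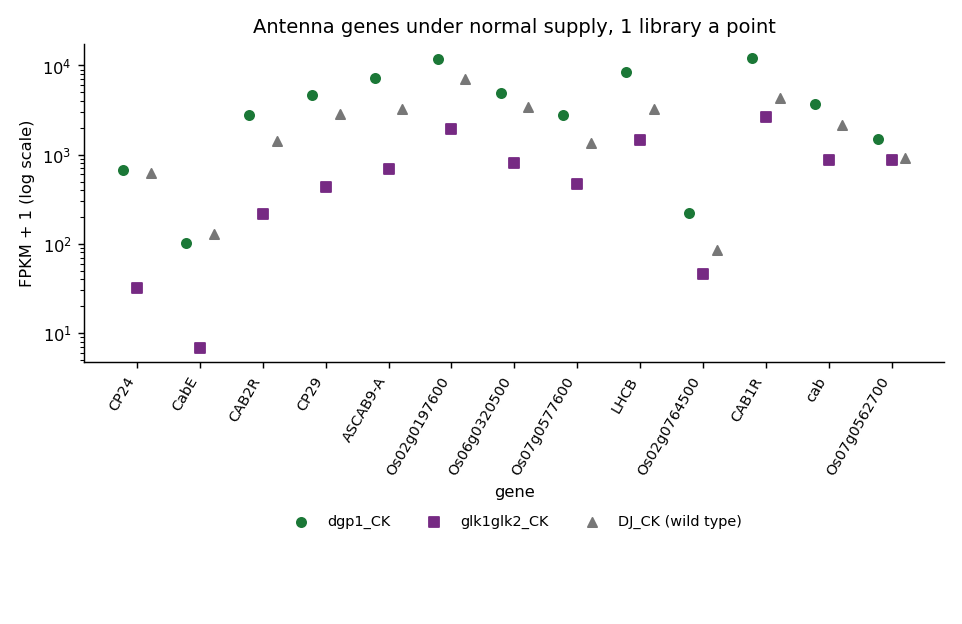
FPKM + 1 (log scale) of the 13 antenna members, ordered by their ratio, in dgp1_CK (circles), glk1glk2_CK (squares) and DJ_CK (triangles), with 1 library behind each point. dgp1_CK lies above glk1glk2_CK for every gene, and the gap is smallest for Os07g0562700, with 1499 FPKM in dgp1_CK and 861 FPKM in glk1glk2_CK.

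The nuclear subunits of the photosystems and of the electron carriers between them gave the highest median of all lists, 3.09 over 32 members. In this list 29 members were higher in dgp1_CK, 28 of them beyond counting error, and none was lower. PSAH, the H subunit of photosystem I, had the highest lower bound of any named member: 10507 FPKM in dgp1_CK, 523 FPKM in glk1glk2_CK and 3082 FPKM in DJ_CK, 20.1-fold higher in dgp1_CK (interval 14.3 to 29.2). PsaD, which docks ferredoxin at photosystem I, had 9989 FPKM in dgp1_CK, 1096 FPKM in glk1glk2_CK and 2626 FPKM in DJ_CK. PsbO, which stabilises the water-splitting manganese cluster of photosystem II, had 5268 FPKM in dgp1_CK, 625 FPKM in glk1glk2_CK and 2201 FPKM in DJ_CK. For these subunits dgp1_CK exceeded the wild type as well as the double mutant.

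Electron carriers followed the subunits. OsPC, plastocyanin, had 7641 FPKM in dgp1_CK, 860 FPKM in glk1glk2_CK and 4786 FPKM in DJ_CK. Fd1, the main leaf ferredoxin, had 3839 FPKM in dgp1_CK, 866 FPKM in glk1glk2_CK and 3498 FPKM in DJ_CK. petC, the Rieske protein of the cytochrome b6f complex, had 4519 FPKM in dgp1_CK, 896 FPKM in glk1glk2_CK and 2330 FPKM in DJ_CK. The exceptions were members of low level: OsFd3, a ferredoxin with a log2 ratio of -0.63, had 46.3 FPKM in dgp1_CK, 72.2 FPKM in glk1glk2_CK and 42 FPKM in DJ_CK. The highest log2 ratio, 7.69, belonged to Os03g0731100, annotated as a photosystem I subunit N family protein, with 206 FPKM in dgp1_CK, 0 in glk1glk2_CK and 162 FPKM in DJ_CK, and the lower bound of its fold was 2.96.

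Chlorophyll synthesis had fewer and less abundant members. Of 8, 6 were higher in dgp1_CK, 4 beyond counting error, none was lower, and the median was 1.86. OsChlH, the porphyrin-binding subunit of magnesium chelatase at the entry to the chlorophyll branch, had 189 FPKM in dgp1_CK, 4.39 FPKM in glk1glk2_CK and 102 FPKM in DJ_CK. Its fold was 43 (interval 11 to 447), and the double mutant's value stands for 1.75 estimated fragments. OsCRD1, a subunit of the cyclase that forms the fifth ring, had 431 FPKM in dgp1_CK, 80.7 FPKM in glk1glk2_CK and 325 FPKM in DJ_CK. CAO, which makes chlorophyll b, had 153 FPKM in dgp1_CK, 57.6 FPKM in glk1glk2_CK and 142 FPKM in DJ_CK. GUN4, which assists magnesium chelatase, had 107 FPKM in dgp1_CK, 59.2 FPKM in glk1glk2_CK and 49.2 FPKM in DJ_CK, with an interval (0.827 to 4.68) that takes in 1.

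Carotenoid synthesis, a list added after values were seen, resembled it, with 6 of 8 members higher, all 6 beyond counting error, and a median of 2.29. PSY2, a phytoene synthase at the entry of the pathway, had 153 FPKM in dgp1_CK, 13.1 FPKM in glk1glk2_CK and 109 FPKM in DJ_CK. Genes of chlorophyll breakdown were divided. Of 7, 3 were higher in dgp1_CK and 2 were lower. SGR, the stay-green protein that removes magnesium from chlorophyll during senescence, had 12.4 FPKM in dgp1_CK, 145 FPKM in glk1glk2_CK and 10.3 FPKM in DJ_CK. NYC1, a chlorophyll b reductase, had 63.6 FPKM in dgp1_CK, 147 FPKM in glk1glk2_CK and 79.2 FPKM in DJ_CK. For SGR and NYC1 the wild type lay nearer dgp1 than the double mutant, and their intervals lay below 1 (0.0346 to 0.199 for SGR, 0.28 to 0.689 for NYC1).

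Carbon fixation and photorespiration went with the light reactions. Of 17 Calvin cycle members, 15 were higher in dgp1_CK, all 15 beyond counting error, and 1 was lower, with a median of 2.37. OsRcaII, Rubisco activase, had 16376 FPKM in dgp1_CK, 1490 FPKM in glk1glk2_CK and 18414 FPKM in DJ_CK, a fold of 11 (interval 9.68 to 12.5). RbcS3, a Rubisco small subunit, had 7583 FPKM in dgp1_CK, 778 FPKM in glk1glk2_CK and 7784 FPKM in DJ_CK. Unlike the photosystem subunits, these genes were at about the same level in dgp1 and the wild type. The small-subunit genes are near-identical copies and their single values are uncertain. OsPrk, phosphoribulokinase, was within 2-fold, with 105 FPKM in dgp1_CK, 83.3 FPKM in glk1glk2_CK and 88.1 FPKM in DJ_CK. The member that was lower in dgp1_CK, Os01g0118000, an aldolase whose closest named protein is a chloroplast form of Arabidopsis, had 24.6 FPKM in dgp1_CK and 53.1 FPKM in glk1glk2_CK, with an interval (0.187 to 1.29) that takes in 1.

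Photorespiration recycles the product of Rubisco's reaction with oxygen through chloroplast, peroxisome and mitochondrion. Of 15 members, 11 were higher in dgp1_CK, all 11 beyond counting error, and none was lower, with a median of 2.63. OsHPR1, the peroxisomal hydroxypyruvate reductase, had 543 FPKM in dgp1_CK, 23.2 FPKM in glk1glk2_CK and 446 FPKM in DJ_CK, a fold of 23.4 (interval 10.9 to 61.6). OsGLO1, a glycolate oxidase, had 862 FPKM in dgp1_CK, 61.2 FPKM in glk1glk2_CK and 766 FPKM in DJ_CK. Os06g0611900, the P subunit of mitochondrial glycine decarboxylase, had 1658 FPKM in dgp1_CK, 109 FPKM in glk1glk2_CK and 1037 FPKM in DJ_CK. The difference thus extended to enzymes of the pathway outside the chloroplast. The cytosolic branch did not show it: OsHPR2-1 had 55.6 FPKM in dgp1_CK, 47.1 FPKM in glk1glk2_CK and 37.4 FPKM in DJ_CK.

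Photoprotection genes were higher in dgp1_CK for 6 of 8 members, 5 beyond counting error, with a median of 1.75. PSBS1, which triggers the release of excess light energy as heat, had 4888 FPKM in dgp1_CK, 767 FPKM in glk1glk2_CK and 2336 FPKM in DJ_CK. Its copy PSBS2 had 159 FPKM in dgp1_CK, 189 FPKM in glk1glk2_CK and 144 FPKM in DJ_CK. OsPGR5, which carries cyclic electron flow around photosystem I, had 804 FPKM in dgp1_CK, 211 FPKM in glk1glk2_CK and 715 FPKM in DJ_CK. Of the 2 PsbS genes it was the abundant one that was past 2-fold.

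Antioxidant enzymes had no common direction: 6 of 23 were higher in dgp1_CK and 5 lower, and their median of 0.59 was -0.08 on scaling to own reads. APX8 and OsAPx7, ascorbate peroxidases that remove hydrogen peroxide, went opposite ways. APX8, described as bound to the thylakoid membrane, had 359 FPKM in dgp1_CK, 76.7 FPKM in glk1glk2_CK and 272 FPKM in DJ_CK (interval of the fold 2.66 to 9.06). OsAPx7, described only as similar to a thylakoid-bound form, had 14.2 FPKM in dgp1_CK, 91.8 FPKM in glk1glk2_CK and 25.9 FPKM in DJ_CK (0.065 to 0.366). CATC, the leaf catalase of photorespiration, had 973 FPKM in dgp1_CK, 243 FPKM in glk1glk2_CK and 575 FPKM in DJ_CK.

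Chloroplast genes in the wide sense were examined with lists added after values were seen. Of 443 members whose description names the chloroplast, 320 were higher in dgp1_CK and 23 lower, with a median of 1.85. They made up 24.4% of all members that were higher, 2.83% of those that were lower and 11.8% of all members. Their share of the summed FPKM of members was 34.4% in dgp1_CK, 11.9% in glk1glk2_CK and 26.8% in DJ_CK. In whole leaves, fewer chloroplast-bearing cells and less RNA per cell cannot be told apart. Plastid ribosomal proteins, encoded in the nucleus, were higher for 23 of 29 members, 18 beyond counting error, with a median of 1.74. The 5 members on the plastid genome had a median of 0.00, with 2 higher and none lower, 1 of them beyond counting error. Between dgp1_LP and glk1glk2_LP their median was -5.20, with none higher in dgp1_LP and 4 lower. Plastid-encoded transcripts were 0.187% of reads in dgp1_CK, 0.107% in glk1glk2_CK and 0.0764% in DJ_CK. On low phosphate they were 0.00467% in dgp1_LP, 0.178% in glk1glk2_LP and 0.00388% in DJ_LP, the wild type on low phosphate. Estimated fragments also differed widely, about 15857155 in dgp1_LP, 83505 in glk1glk2_LP and 2366573 in DJ_LP. Their part in these shares and in the median of -5.20 was not tested.

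Among members outside these lists, OsPHP1, a pseudo-phosphotransfer protein of the cytokinin relay, had 1298 FPKM in dgp1_CK, 26.3 FPKM in glk1glk2_CK and 692 FPKM in DJ_CK (fold 49.3, interval 13.6 to 410). OsTPS29, a beta-caryophyllene synthase, had 562 FPKM in dgp1_CK, 16.7 FPKM in glk1glk2_CK and 173 FPKM in DJ_CK (fold 33.6, 12 to 146). Os05g0579600, whose closest named protein is the RADIALIS transcription factor of snapdragon, had 914 FPKM in dgp1_CK, 13 FPKM in glk1glk2_CK and 791 FPKM in DJ_CK (lower bound 11). All 3 were high in DJ_CK too. On low phosphate Os05g0579600 had 10.8 FPKM in dgp1_LP and 0 in glk1glk2_LP. OsTPS29 had 350 FPKM in dgp1_LP, 1.52 FPKM in glk1glk2_LP and 0.891 FPKM in DJ_LP. LIR1, a light-regulated protein that tethers ferredoxin-NADP oxidoreductase to the thylakoid, had 3220 FPKM in dgp1_CK, 164 FPKM in glk1glk2_CK and 1186 FPKM in DJ_CK (fold 19.6, 10.6 to 40.8). Os10g0209700, a heavy-metal-associated protein, had 1071 FPKM in dgp1_CK, 53 FPKM in glk1glk2_CK and 495 FPKM in DJ_CK. On low phosphate it had 66.4 FPKM in dgp1_LP and 57.8 FPKM in glk1glk2_LP, and the interval of the fold (0.564 to 2.8) took in 1. Os05g0110100, with a cysteine-rich DnaJ domain, had 1270 FPKM in dgp1_CK, 30.4 FPKM in glk1glk2_CK and 679 FPKM in DJ_CK. For LIR1, Os10g0209700 and Os05g0110100 also the wild type lay between the mutants under normal supply. On low phosphate LIR1 was 10.7-fold and Os05g0110100 5.54-fold higher in dgp1_LP than in glk1glk2_LP.

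Cytosolic ribosomal proteins showed the opposite pattern. Of 159 cytosolic ribosomal protein members, 1 was higher in dgp1_CK and 86 were lower, 72 of these beyond counting error, with a median of -1.04. The middle of the list was narrow, from -1.36 at the lower quartile to -0.65 at the upper. Their levels summed to 17024 FPKM in dgp1_CK and 33583 FPKM in glk1glk2_CK. Among the lowest, RPL3B, a large-subunit protein, had 5.36 FPKM in dgp1_CK, 57 FPKM in glk1glk2_CK and 7.93 FPKM in DJ_CK. Against the wild type the list's median was 0.21 in dgp1_CK and 1.26 in glk1glk2_CK, 2 comparisons that share DJ_CK. The lower values in dgp1 thus sat close to the wild type.

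Chaperones of the endoplasmic reticulum, a list added after values were seen, were lower in dgp1_CK for 7 of 12 members, all 7 beyond counting error, and higher for none, with a median of -1.42. CRO1, calreticulin, had 86.1 FPKM in dgp1_CK, 270 FPKM in glk1glk2_CK and 38.7 FPKM in DJ_CK. OsCNX, calnexin, had 61.5 FPKM in dgp1_CK, 204 FPKM in glk1glk2_CK and 72.1 FPKM in DJ_CK. GRP94, the reticulum's HSP90, had 18.3 FPKM in dgp1_CK, 104 FPKM in glk1glk2_CK and 12.7 FPKM in DJ_CK. All 3 were highest in the double mutant. Proteasome subunits, also added later, were lower for 9 of 32 members, 7 beyond counting error, and higher for 1, with a median of -0.62. Their share that was lower, 28.1%, was not far from the 21.5% of all members, but 3.12% were higher, against 34.8% of all members. In the low-phosphate pair 17 of the 32 were lower and 0 higher, where 25.3% of all members were lower and 25.8% higher. Heat shock proteins were divided, lower for 8 of 17 and higher for 4, with a median of -0.81 and log2 ratios from -3.31 to 5.95.

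The most extreme list median was that of genes for DNA repair and cell cycle arrest. This list was put together after the values of its genes were seen, so that its count supports nothing beyond the values themselves. Of 11 members, 10 were lower in dgp1_CK, all 10 beyond counting error, and the median was -4.80. RNRS2, a small subunit of ribonucleotide reductase, which makes the building blocks of DNA, had 0 FPKM in dgp1_CK, 403 FPKM in glk1glk2_CK and 0 in DJ_CK. By the bound of its interval it was 86.6-fold or more lower in dgp1_CK. Os01g0843700, whose closest named protein is the Arabidopsis cyclin-dependent kinase inhibitor SMR5, had 0 FPKM in dgp1_CK, 367 FPKM in glk1glk2_CK and 0 in DJ_CK, with an interval bound of 30.1-fold lower in dgp1_CK. These transcripts were found in the double mutant and were at or near 0 in both other libraries.

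EL2 (Os03g0107700), a rice cyclin-dependent kinase inhibitor, had 10.8 FPKM in dgp1_CK, 769 FPKM in glk1glk2_CK and 0 in DJ_CK. ST1, another ribonucleotide reductase small subunit, had 24 FPKM in dgp1_CK, 697 FPKM in glk1glk2_CK and 0 in DJ_CK. RNRS2 and ST1 are also annotated with chloroplast biogenesis, so the lists are not separate. The lowest log2 ratio of the chloroplast list, -8.66, is that of RNRS2. RAD51A2, a recombinase that repairs double-strand breaks, had 2.16 FPKM in dgp1_CK, 104 FPKM in glk1glk2_CK and 0 in DJ_CK. For all of them the gap between the mutants was wider than the counting interval, with upper bounds of the dgp1 to glk1glk2 ratio of 0.0373, 0.0532 and 0.107. PARP2A, a poly(ADP-ribose) polymerase that marks DNA breaks, had 3.81 FPKM in dgp1_CK, 148 FPKM in glk1glk2_CK and 0 in DJ_CK. OsPCNA, the sliding clamp of replication and repair, had 13.8 FPKM in dgp1_CK, 150 FPKM in glk1glk2_CK and 13.4 FPKM in DJ_CK. The exception, Os02g0465000, a RAD23 protein, had 142 FPKM in dgp1_CK, 69.3 FPKM in glk1glk2_CK and 167 FPKM in DJ_CK, with an interval (0.477 to 20.9) that takes in 1. Of 24 histone members, most of which are made in S phase, 9 (37.5%) were higher in dgp1_CK, against 34.8% of all members, and none was lower. Their median of 0.26 was -0.42 on scaling to own reads. Between dgp1_LP and glk1glk2_LP, 1 histone was higher in dgp1_LP and 11 were lower, with a median of -0.63.

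**Figure D3:**
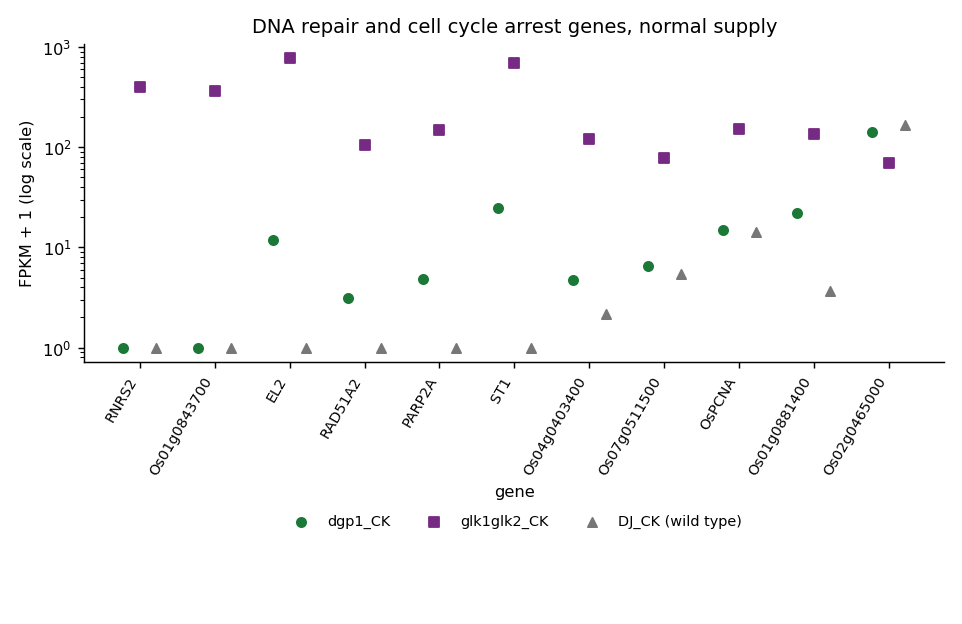
FPKM + 1 (log scale) of the 11 members of the list for DNA repair and cell cycle arrest in dgp1_CK (circles), glk1glk2_CK (squares) and DJ_CK (triangles), 1 library a point; a value of 1 is an FPKM of 0. The glk1glk2_CK points lie above the others for 10 genes, and only for Os02g0465000 do they lie below, with 142 FPKM in dgp1_CK and 69.3 FPKM in glk1glk2_CK.

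Other members far lower in dgp1_CK were single genes of several kinds. DIP3, described as a xylanase inhibitor induced by drought, had 53.5 FPKM in dgp1_CK, 6616 FPKM in glk1glk2_CK and 20 FPKM in DJ_CK, 124-fold lower in dgp1_CK (interval 89.1 to 177). Os02g0818900, a heavy-metal-associated protein, had 6.3 FPKM in dgp1_CK, 865 FPKM in glk1glk2_CK and 0 in DJ_CK. Os03g0248500, a cupredoxin domain protein, had 0 FPKM in dgp1_CK, 527 FPKM in glk1glk2_CK and 0 in DJ_CK, with an interval bound of 47-fold lower in dgp1_CK. Each of these was scarce in the wild type and abundant in the double mutant. Pir7b, an esterase linked to resistance to rice blast, had 0.777 FPKM in dgp1_CK, 273 FPKM in glk1glk2_CK and 4.3 FPKM in DJ_CK. Os07g0683600, a ricin B-like lectin, had 5.83 FPKM in dgp1_CK, 512 FPKM in glk1glk2_CK and 0 in DJ_CK. Os08g0485000, an EXORDIUM-like protein, had 8.63 FPKM in dgp1_CK, 549 FPKM in glk1glk2_CK and 8.68 FPKM in DJ_CK. In the low-phosphate pair Os07g0683600 was 6.68-fold lower in dgp1_LP and Os08g0485000 4.98-fold lower, while Pir7b was 925-fold lower. OsS40-7, of a family named for senescence, had 0 FPKM in dgp1_CK, 63.6 FPKM in glk1glk2_CK and 0 in DJ_CK, with an interval bound of 19.1-fold lower in dgp1_CK. RNS4, an S-like ribonuclease, differed from these in that the wild type also had it: 18.3 FPKM in dgp1_CK, 880 FPKM in glk1glk2_CK and 164 FPKM in DJ_CK.

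Genes of phosphate supply were of interest because the series starves plants of phosphate. Of 12 members, 7 were higher in dgp1_CK, 6 beyond counting error, and 1 was lower, with a median of 1.66. Over genes of at least 20 FPKM the list's median was 0.09. OsPT14, a phosphate transporter, had 133 FPKM in dgp1_CK, 4.83 FPKM in glk1glk2_CK and 163 FPKM in DJ_CK. PT8, a high-affinity phosphate transporter, had 10.5 FPKM in dgp1_CK, 58.7 FPKM in glk1glk2_CK and 6.91 FPKM in DJ_CK. PHR2, the central regulator of phosphate starvation responses, had 56.1 FPKM in dgp1_CK, 20.4 FPKM in glk1glk2_CK and 45.1 FPKM in DJ_CK, with an interval (0.972 to 11.4) that takes in 1. SQD2.1 and SQD2.2, which make the chloroplast sulfolipid, had 58.7 and 56.8 FPKM in dgp1_CK, 5.42 and 6.58 FPKM in glk1glk2_CK, and 36.9 and 36.7 FPKM in DJ_CK. The list therefore held genes that differed in both directions.

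Iron genes numbered 7, of which 3 were higher and 2 lower. OsNAS3, a nicotianamine synthase, had 94.8 FPKM in dgp1_CK, 1.15 FPKM in glk1glk2_CK and 80.7 FPKM in DJ_CK (lower bound 3.27). OsFER1, the iron store ferritin of the plastid, had 36.5 FPKM in dgp1_CK, 198 FPKM in glk1glk2_CK and 60.1 FPKM in DJ_CK. Metallothioneins, small metal-binding proteins, were higher for 4 of 7 and lower for 1, with a median of 1.41. OsMT3a, among the most abundant members, had 40083 FPKM in dgp1_CK, 15079 FPKM in glk1glk2_CK and 36034 FPKM in DJ_CK.

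Starch, sucrose and trehalose genes were higher in dgp1_CK for 15 of 21 members, 12 beyond counting error, and lower for 1, with a median of 1.44. GBSSII, the granule-bound starch synthase of leaves, had 453 FPKM in dgp1_CK, 83.3 FPKM in glk1glk2_CK and 247 FPKM in DJ_CK. sps11, a sucrose phosphate synthase, had 117 FPKM in dgp1_CK, 10.6 FPKM in glk1glk2_CK and 62.3 FPKM in DJ_CK. SWEET13, a sucrose exporter, had 172 FPKM in dgp1_CK, 170 FPKM in glk1glk2_CK and 183 FPKM in DJ_CK. Synthesis genes differed while this exporter did not reach 2-fold.

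Of 12 jasmonate genes, 4 were higher and 3 lower, and their median was -0.35. OsTIFY11d, a JAZ repressor induced by the hormone, had 8.77 FPKM in dgp1_CK, 62.3 FPKM in glk1glk2_CK and 7.98 FPKM in DJ_CK, while AOC, which makes the hormone's precursor, had 149 FPKM in dgp1_CK, 149 FPKM in glk1glk2_CK and 112 FPKM in DJ_CK. Defence proteins were higher for 4 of 15 and lower for 7, all 7 beyond counting error. Os12g0630500, a thaumatin-like protein, had 0 FPKM in dgp1_CK, 77.1 FPKM in glk1glk2_CK and 0 in DJ_CK. OsPR2, a glucanase, went the other way, with 110 FPKM in dgp1_CK, 33.6 FPKM in glk1glk2_CK and 234 FPKM in DJ_CK.

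**Figure D4:**
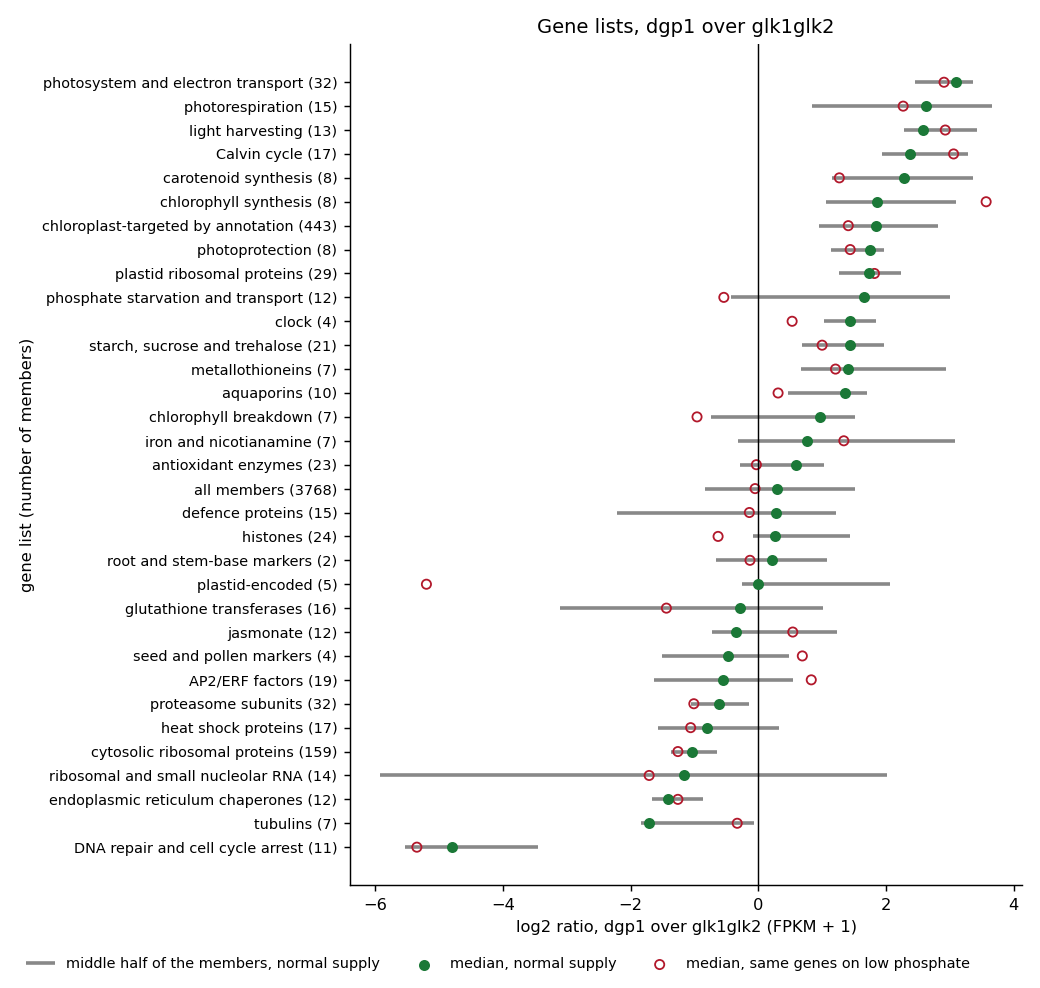
Median log2 ratio (FPKM + 1) of dgp1 over glk1glk2 for each gene list, with the number of members in brackets. Filled points are normal supply, grey bars run from the lower to the upper quartile of the members, and open circles are the same genes on low phosphate; photosystem genes stand at 3.09 under normal supply and DNA repair genes at -4.80, with all members at 0.29.

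Clock genes moved with the comparison. All 4 members had higher values in dgp1_CK, 3 of them past 2-fold. CCA1, which peaks around dawn, had 694 FPKM in dgp1_CK, 211 FPKM in glk1glk2_CK and 621 FPKM in DJ_CK. GI, which peaks late in the day, had 145 FPKM in dgp1_CK, 64.1 FPKM in glk1glk2_CK and 99 FPKM in DJ_CK. OsPRR73 had 104 FPKM in dgp1_CK, 20.7 FPKM in glk1glk2_CK and 81.7 FPKM in DJ_CK. ELF4_chr.3 had 71.6 FPKM in dgp1_CK, 46 FPKM in glk1glk2_CK and 59.5 FPKM in DJ_CK. The median of the 4 was 1.44, and 0.77 on scaling to own reads. In the low-phosphate pair it was 0.53, with 1 of the 4 past 2-fold. The part of harvest time in any of the differences was not tested.

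In each library most markers of other organs had no read. Of 27 genes of root and stem base, 20 had no read in dgp1_CK, 24 in glk1glk2_CK and 20 in DJ_CK. Many genes of any kind had none: of all 40718 genes, 20191 had reads in dgp1_CK, 15067 in glk1glk2_CK and 17782 in DJ_CK. The summed levels of the 27 were 260 FPKM in dgp1_CK, 561 FPKM in glk1glk2_CK and 143 FPKM in DJ_CK, highest in the double mutant. The knotted-type factors OSH1 and OSH15, which define the shoot meristem, were at 0 in all 3 libraries. Os03g0718800, a physical impedance induced protein, held the largest part of the sums of both mutants, with 187 FPKM in dgp1_CK, 543 FPKM in glk1glk2_CK and 17.3 FPKM in DJ_CK. The other member of the list, LSI1, a silicon channel, had 53.6 FPKM in dgp1_CK, 13.1 FPKM in glk1glk2_CK and 63.2 FPKM in DJ_CK. The 289 seed and pollen markers summed to 951 FPKM in dgp1_CK, 1238 FPKM in glk1glk2_CK and 872 FPKM in DJ_CK, and the 4 that were members had a median of -0.48. The part of organ composition in the differences was not tested. Ribosomal RNA took 0.527% of reads in dgp1_CK, 0.197% in glk1glk2_CK and 0.0334% in DJ_CK, and of 14 ribosomal or small nucleolar RNA members 6 were higher in dgp1_CK, 5 of them beyond counting error, and 7 lower, 1 of them beyond counting error.

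The wild type library lay nearer dgp1 than the double mutant for most members, whether they differed or not. DJ_CK was nearer dgp1_CK for 83.3% of the members that were higher and 83.5% of those that were lower, against 73.9% of all members. Of the 1310 that were higher in dgp1_CK, DJ_CK lay between the mutants for 939 (71.7%), above both for 318 and below both for 53. Of the 812 that were lower, DJ_CK lay between for 418 (51.5%), below both for 370 and above both for 24. Over all members it lay between for 48.6%, and members picked for a wide gap leave more room for a value between. Among those higher, 1042 (79.5%) were within 2-fold of DJ_CK in dgp1_CK and 293 (22.4%) in glk1glk2_CK. Among those lower, 564 (69.5%) were within 2-fold of DJ_CK in dgp1_CK and 175 (21.6%) in glk1glk2_CK. For all members the shares were 80.2% in dgp1_CK and 46.0% in glk1glk2_CK. Both sets of shares use the same DJ_CK library, and the smaller number of fragments in glk1glk2_CK also widens its distance from any other library; how much of the distance this makes was not tested. For photosystem and electron transport genes the median log2 ratio over DJ_CK was 0.87 in dgp1_CK and -1.95 in glk1glk2_CK. For Calvin cycle genes it was 0.28 in dgp1_CK and -1.92 in glk1glk2_CK.

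The pair of libraries grown on low phosphate shares no library with the pair above and shows the same genotypes after a treatment. Of the 1310 members higher in dgp1_CK, 643 (49.1%) were also at least 2-fold higher in dgp1_LP than in glk1glk2_LP and 159 (12.1%) at least 2-fold lower. Of the 812 lower in dgp1_CK, 388 (47.8%) were also lower in dgp1_LP and 102 (12.6%) higher. Over all members, 25.8% were higher and 25.3% lower in the low-phosphate pair, whose median was -0.05. Across the 3768 genes the 2 log2 ratios had a Pearson r of 0.428 and a Spearman rho of 0.460, as a description only, since genes are not independent and both ratios rest on few fragments of the double mutant. glk1glk2_LP held about 83505 estimated fragments and dgp1_LP about 15857155.

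Lists of nuclear photosynthesis genes, DNA repair genes and ribosomal proteins kept their side in the low-phosphate pair. The median was 2.93 for antenna genes, with 11 of 13 higher, 2.91 for photosystem and electron transport genes, with 30 of 32 higher, and -5.35 for DNA repair genes, with 10 of 11 lower. Cytosolic ribosomal proteins had a median of -1.26, with 107 of 159 lower. CP24 was an exception, with 9.65 FPKM in dgp1_LP and 54 FPKM in glk1glk2_LP, as was OsLFNR1, a leaf ferredoxin-NADP oxidoreductase, with 252 FPKM in dgp1_CK and 31.7 FPKM in glk1glk2_CK but 0.503 FPKM in dgp1_LP and 24.8 FPKM in glk1glk2_LP. Phosphate genes did not keep their median, which was -0.54 in the low-phosphate pair, with 4 of 12 higher and 5 lower. Chlorophyll breakdown genes stood at 0.97 under normal supply and -0.96 on low phosphate. OsGLK1 had 89.2 FPKM in dgp1_LP and 49.3 FPKM in glk1glk2_LP, and GLK2 (Os01g0239000) had 106 FPKM in dgp1_LP and 53 FPKM in glk1glk2_LP. Both were under 2-fold, with log2 ratios of 0.84 and 0.98. The interval of the fold took in 1 for OsGLK1 (0.981 to 3.78) but not for GLK2 (1.22 to 3.54).

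**Figure D5:**
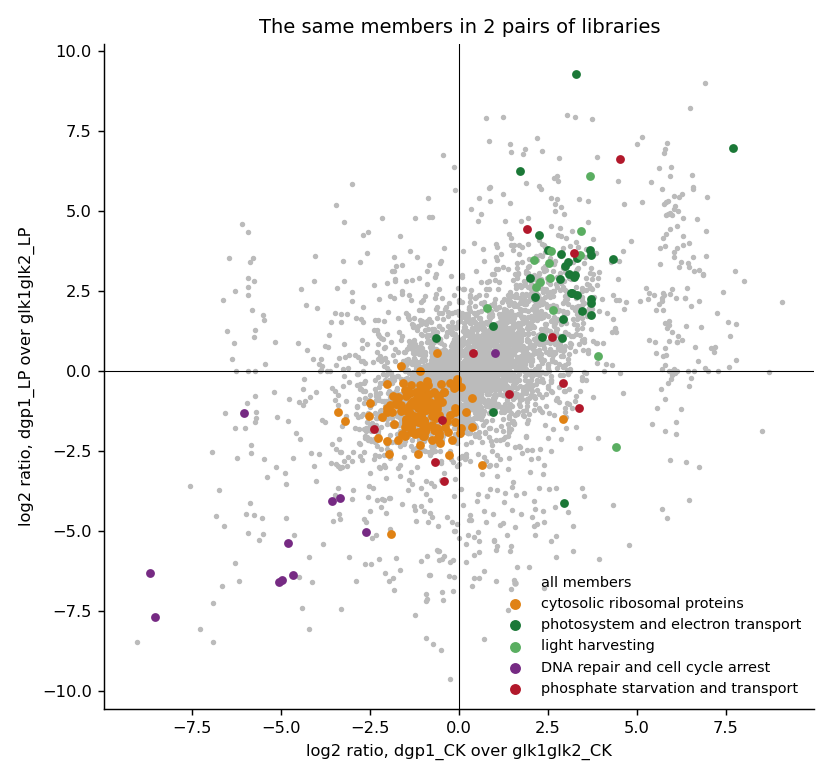
Log2 ratio of dgp1 over glk1glk2 on low phosphate (vertical) against the same ratio under normal supply (horizontal) for the 3768 members, with gene lists in colour. Photosystem and antenna genes gather at the upper right, with medians of 2.91 and 2.93 on low phosphate, and ribosomal proteins and DNA repair genes at the lower left, with medians of -1.26 and -5.35.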

How the data were processed

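Leaf RNA-seq values of 6 libraries (1 per group) came from the authors' deposited table, whose header names no unit. The deposited values behave as FPKM, computed by the authors: each one times gene length was a whole multiple (within 0.01) of 1 step per library for 100% of values. Reads were recovered from that step, and dividing them by the peak of reads per gene at low levels (searched from 5 to 600 reads) gave estimated fragments. The genome build, aligner, counting tool and strand setting are not given in the sources used here; gene lengths and names are those deposited, and symbols were filled in from the second deposited table. Library preparation used a directional kit, per the labels' protocols.

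Members had at least 50 FPKM in dgp1_CK or glk1glk2_CK. The log2 ratio used FPKM + 1, and 2-fold was the threshold. Intervals (95%) and the level of 3 fragments cover counting error only. Named genes were GLK1 and GLK2, the 12 with the highest lower bound and the 12 with the lowest upper bound of the interval, clock and marker members, and among the 3 highest and 3 lowest of each list; other list members were named after their values were seen. Members, 22 gene lists and 10 later lists were chosen with earlier results of these data known, and list patterns were trimmed by gene identity after matching (91 edits and some excluded words). No promoter sequence was used here. Read recovery and calls were tested on simulated data. Python 3 with numpy, pandas, scipy and matplotlib was used.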

Additional observations from a re-analysis of the deposited data

Results flagged for a closer look

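For 8 of the 91 genes named in the text, the dgp1 to glk1glk2 ratio was past 2-fold in opposite directions in the pair of libraries under normal supply and in the pair on low phosphate. The difference between the pairs was not tested, since each has 1 library a group. OsPHP1 (Os01g0743800) had a log2 ratio of 5.57 under normal supply and -1.13 on low phosphate, where it had 27.6 FPKM in dgp1_LP and 61.5 FPKM in glk1glk2_LP. RNS4 (Os09g0537700) had a log2 ratio of -5.51 under normal supply and 1.77 on low phosphate, where it had 2713 FPKM in dgp1_LP and 794 FPKM in glk1glk2_LP. Under normal supply it had 18.3 FPKM in dgp1_CK and 880 FPKM in glk1glk2_CK. Of the antenna and electron transport genes, CP24 had a log2 ratio of 4.41 under normal supply and -2.37 on low phosphate, and OsLFNR1 2.95 under normal supply and -4.10 on low phosphate. OsMT3a had a log2 ratio of 1.41 under normal supply and -2.71 on low phosphate, with 1794 FPKM in dgp1_LP and 11784 FPKM in glk1glk2_LP. OsPIP1a had 1.37 under normal supply and -1.14 on low phosphate on the same log2 scale. ERF77 had a log2 ratio of -6.50 under normal supply and 1.25 on low phosphate, and OsTIFY11d -2.70 under normal supply and 2.01 on low phosphate.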

How the results depend on the processing

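Scaling to own read totals gave 862 higher, 1371 lower, 536 higher and 1118 lower beyond counting error. A minimum of 20 FPKM gave 2393 higher, 1922 lower and 950 lower beyond counting error; 1852 were called the same way on low phosphate and 2620 had DJ_CK between, against 1031 and 1357 at 50 FPKM. A minimum of 100 FPKM gave 764, 362, 333, 591 and 752 for the same counts, and no minimum gave 7954, 4602, 1120, 4647 and 7686; a stricter minimum tests fewer genes by construction. List medians past 1 in size numbered 19, and 10 with no minimum. The median of ribosomal and small nucleolar RNA, -1.16, was 1.51 at 20 FPKM, 1.98 at 100 FPKM and 0.80 with no minimum. Recomputed values of single genes and list medians stayed within their counting interval in 542 cases and left it without a called sign turning in 43. Pseudocounts of 0.1 and 5, median-of-ratios scaling and the lower read peak (92 reads) left every count within 1.5 times. No library could be left out, since each group has 1. No paired analysis was possible because each group has 1 library. The planned promoter motif search was not run. Depth limits the double mutant most, with 31.8 FPKM as the level of 3 fragments in a 1-kb gene.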

Other observations

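Lists added after values were seen hold further differences. Of 16 glutathione transferases, 4 were higher in dgp1_CK and 5 lower, all 5 beyond counting error. OsGSTU13 had 769 FPKM in dgp1_CK, 15.5 FPKM in glk1glk2_CK and 364 FPKM in DJ_CK. OsGSTU36 had 3.65 FPKM in dgp1_CK, 332 FPKM in glk1glk2_CK and 0 in DJ_CK, and on low phosphate 2.76 FPKM in dgp1_LP and 353 FPKM in glk1glk2_LP. Members of this family of detoxifying enzymes therefore stood at both ends of the comparison.

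Of 19 AP2/ERF transcription factors, 3 were higher in dgp1_CK and 8 lower, 6 of these beyond counting error. The list turned in the low-phosphate pair, with 9 higher and 2 lower, and a median of 0.83 against -0.55 under normal supply. ERF77 had 1.13 FPKM in dgp1_CK, 192 FPKM in glk1glk2_CK and 18 FPKM in DJ_CK, but 263 FPKM in dgp1_LP and 110 FPKM in glk1glk2_LP. Tubulins had 2 of 7 higher and 5 lower. TUB8 had 8.58 FPKM in dgp1_CK, 67 FPKM in glk1glk2_CK and 73.2 FPKM in DJ_CK, so that here dgp1 was the library apart from the wild type. Aquaporins were higher in dgp1_CK for 7 of 10, 4 beyond counting error. OsPIP1a had 2807 FPKM in dgp1_CK, 1089 FPKM in glk1glk2_CK and 1663 FPKM in DJ_CK, and OsPIP2a had 540 FPKM in dgp1_CK, 610 FPKM in glk1glk2_CK and 532 FPKM in DJ_CK.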
